A study of Mus musculus with 12 samples.

Results

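The renin-angiotensin system genes were examined in whole adrenals of 12 female mice. The 9 genes were chosen by name, as the textbook parts of the system, with earlier results of these data known: *Ren1*, *Agt*, *Ace*, *Agtr1a*, *Agtr1b*, *Agtr2*, *Agtrap*, *Atp6ap2* and *Mas1*. All 9 were found among the 39017 genes of the count table, and 8 had enough counts to be tested. The 6 control mice (Ctrl) carried *ASCre/+*, a Cre recombinase placed in the *Cyp11b2* (aldosterone synthase, AS) locus and therefore active in aldosterone-producing cells of the zona glomerulosa (zG), the outermost zone of the adrenal cortex. The 6 βCat-GOF mice carried the same Cre together with *Ctnnb1fl(ex3)/+*, an allele from which Cre removes exon 3 so that the encoded β-catenin is no longer degraded (genotype *ASCre/+::Ctnnb1fl(ex3)/+*). All mice were 10 to 11 weeks old and on a mixed sv129 and C57Bl/6 background, and the genotype labels give Cre in both groups, although the titles of the Ctrl samples call them wild type. The Cre acts in zG cells, whereas the RNA came from all cells of the gland, so a count in these libraries is an average over cortex, medulla, capsule and vessels. A transcript in more cells and more transcript per cell cannot be told apart in such bulk RNA.

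Renin, a protease, cuts angiotensinogen to angiotensin I, which angiotensin-converting enzyme trims to angiotensin II. Angiotensin II acts on the adrenal zG through the AT1 receptor to drive aldosterone synthesis, while the AT2 receptor and the receptor Mas, which binds a shorter angiotensin peptide, are often described as opposing it. Circulating renin comes from the kidney and angiotensinogen mainly from the liver, but a local renin-angiotensin system has long been described in the adrenal. Mice have 2 AT1 receptor genes, *Agtr1a* and *Agtr1b*, where humans have 1.

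In βCat-GOF adrenals the transcripts of renin and of both AT1 receptor genes were higher than in Ctrl, and for each of these 3 genes the 2 groups did not overlap. *Ren1* was 10.7-fold higher, *Agtr1b* 2.94-fold and *Agtr1a* 1.85-fold. No member was called lower. *Agt*, *Ace*, *Agtr2*, *Agtrap* and *Atp6ap2* did not pass the test, and *Mas1* was not detectable at this depth. A gene was called where the fold change exceeded 1.4, the adjusted p of edgeR's quasi-likelihood test was under 0.05 and the mean normalized count over the 12 mice exceeded 100. By that rule 3 of the 8 tested members were higher, against 1.48% of all 14953 genes tested, and 0 were lower, against 0.869%. Of the 5 tested members that were not called, 1 (*Ace*) had an unadjusted p under 0.05, and DESeq2 also called 3 higher and 0 lower. The median log2 fold change was 0.43 over the 8 tested members and 0.000105 over all genes. Non-overlap with all βCat-GOF mice above was seen in 1.61% of all genes, and with all of them below in 1.16%.

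The libraries held 13484675 to 25625494 counts each, so 3 counts corresponded to 0.117 to 0.222 CPM (counts scaled to the library total). Gene counts do not show the loss of exon 3: *Ctnnb1* itself read 21625 ± 858 (SD, n = 6) in Ctrl and 21397 ± 1151 (SD, n = 6) in βCat-GOF. Of 10 zG markers 2 were called higher, *Dab2* (log2 fold change 0.75) and *Vsnl1* (1.00), and 0 lower, against 1.48% and 0.869% of all genes tested. Of the 10, 9 had a positive log2 fold change (median 0.77) and 6 an unadjusted edgeR p under 0.05. The most abundant by mean, *Kcnk3*, weighs most in their sum and read 32025 ± 2121 in Ctrl and 32389 ± 4119 in βCat-GOF (SD, n = 6 each). The zG markers summed to 2995 to 3606 CPM in Ctrl, to 5237 and 5090 CPM in βCat-GOF mice 1 and 2, and to 3113 to 3869 CPM in the other 4 βCat-GOF mice. The labels of Ctrl mice 1 and 2, of Ctrl mice 3 and 4 and of βCat-GOF mice 1 and 2 share a stem, and the sources used here do not say whether these mice were littermates, which the study used where it could. These 3 pairs of libraries differed by more than counting noise, with a chi-square per degree of freedom of 39.2 to 42.8. The other 27 pairs within a group were at 15.8 to 136, so the value does not set the shared-stem pairs apart. It does not tell how the mice of a pair are related. The first number in the label is the same in all Ctrl mice and is not shared by any βCat-GOF mouse, so whatever it stands for cannot be told apart from genotype.

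Renin. *Ren1* (ENSMUSG00000070645; GRCm38 chr1:133350510-133360325, plus strand) encodes renin, the rate-limiting protease of the cascade. The 250 bases before its RefSeq start (GRCm38.p6 chr1:133350424-133350673, plus strand) are printed because *Ren1* had the largest difference among the members and because the changed allele acts on β-catenin, which reaches DNA through TCF/LEF factors. The equal stretch before *Agtr1b* (GRCm38.p6 chr3:20367178-20367427, minus strand) is printed for comparison, as the other member with a large difference. Both run 5′ to 3′ on the gene's strand, and capitals mark the matches to 5 motifs searched on both strands.
Ren1: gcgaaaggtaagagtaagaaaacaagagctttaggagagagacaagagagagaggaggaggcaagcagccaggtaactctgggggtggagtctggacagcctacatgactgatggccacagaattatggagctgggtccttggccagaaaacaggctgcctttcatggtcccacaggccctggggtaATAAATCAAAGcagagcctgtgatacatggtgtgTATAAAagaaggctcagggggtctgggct
Agtr1b: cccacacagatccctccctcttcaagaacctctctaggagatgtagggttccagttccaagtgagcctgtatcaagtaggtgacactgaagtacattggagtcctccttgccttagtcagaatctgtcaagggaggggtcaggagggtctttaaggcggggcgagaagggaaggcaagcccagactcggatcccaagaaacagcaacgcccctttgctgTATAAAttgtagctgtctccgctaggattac
The first capital run before *Ren1* joins ATAAATCA, the reverse complement of the HOX-PBX core TGATTTAT, at 63 to 56 bases before the start, and TCAAAG, the reverse complement of the TCF/LEF motif CTTTGA, at 58 to 53 bases, so that the matches overlap. A HOX-PBX element is a known part of the mouse renin promoter. The second capital run is TATAAA, at 29 to 24 bases before the start. *Agtr1b* had only TATAAA, at 31 to 26 bases. Among the other members, TCAAAG was also found before 1 of the starts of *Ace*, at 243 to 238 bases. The other motifs searched were TGACGTCA (cAMP response element) and CAAGGTCA (steroidogenic factor 1), which matched neither stretch. Of 32851 such stretches before mouse genes, TGATTTAT was found in 275 (0.837%), CTTTGA in 13.8%, TATAAA in 12.4%, TGACGTCA in 1.55% and CAAGGTCA in 1.33%. These matches describe letters in a window. No binding was measured. The RefSeq start of *Ren1* lies inside the GENCODE gene model, which begins further upstream, and a stretch was found for 8 of the 9 members, *Agtr1a* being the exception.

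In Ctrl the normalized count of *Ren1* was 72.5 at the lowest, 369 at the median and 541 at the highest. In βCat-GOF it was 1133 at the lowest, 2824 at the median and 6969 at the highest. The lowest βCat-GOF mouse was thus above the highest Ctrl mouse. The log2 fold change was 3.42 (SE 0.53, n = 6 and 6; edgeR adjusted p = 0.0036; two-sided exact permutation p = 0.0022, the smallest that 924 splits of the mice allow). The spread within groups was wide, with 7.46-fold between the lowest and highest Ctrl mouse and 6.15-fold between those of βCat-GOF. Of the mice whose labels share a stem, Ctrl mice 1 and 2 had the lowest Ctrl values (154 and 72.5), and βCat-GOF mice 1 and 2 had the lowest values of their group (1347 and 1133), while Ctrl mice 3 and 4 were at 541 and 362. The 2 highest values were in βCat-GOF mice 5 (6969) and 3 (5933). βCat-GOF mice 1 and 2, with the lowest *Ren1* of the group, had the highest sums of zG markers. With both left out the log2 fold change was 3.82 (adjusted p = 9.6e-04), and with each shared-stem pair summed to 1 sample it was 3.50 (adjusted p = 0.0098).

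**Figure D1:**
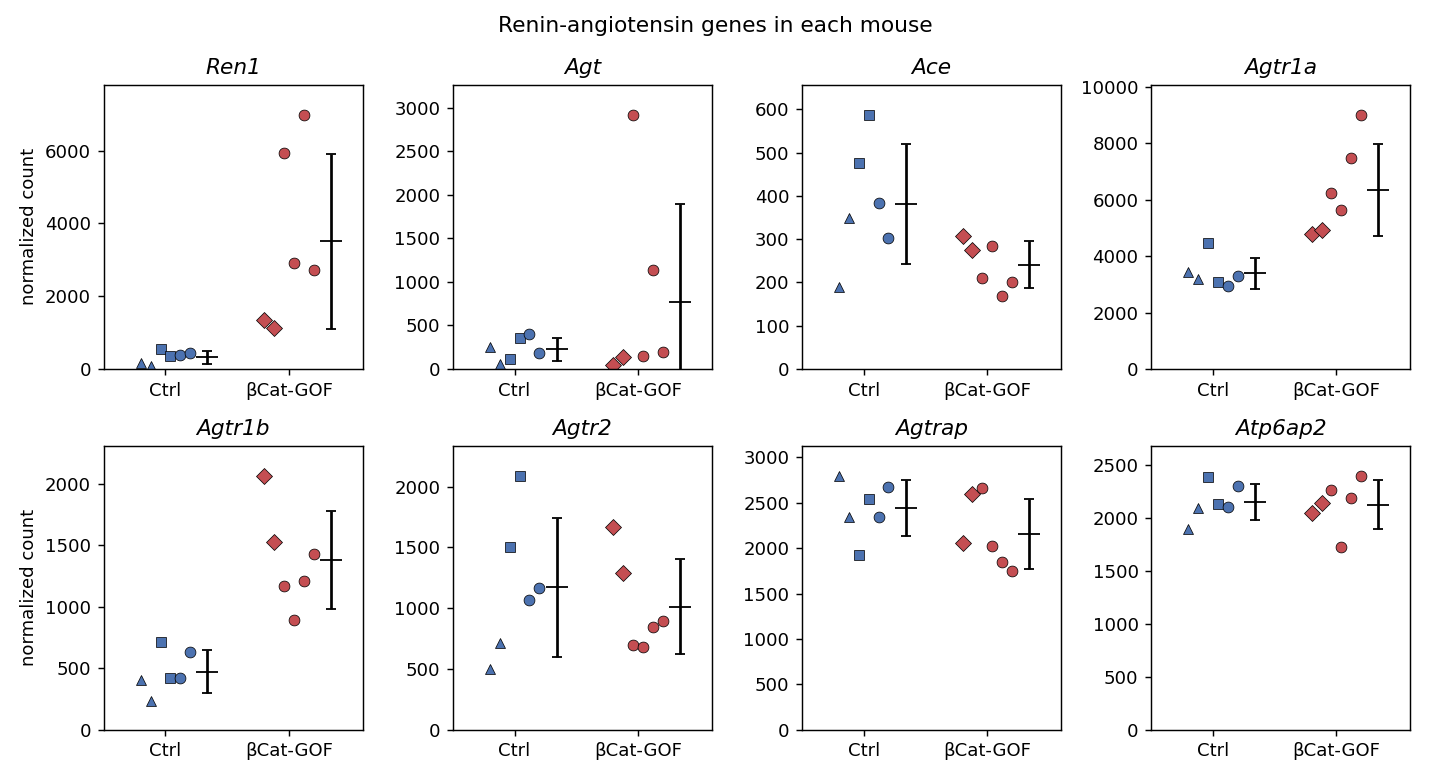
Normalized count of each tested member in each mouse (linear axes from 0). Points are mice, and triangles, squares and diamonds mark mice whose labels share a stem. The bar beside each group is mean and SD, n = 6, clipped at 0 for *Agt*. *Ren1*, *Agtr1a* and *Agtr1b* separate the groups, whereas *Agt* is high in 2 βCat-GOF mice only (2911 and 1138).

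Kidney RNA was looked for because the kidney is the main site of renin. None of 10 kidney markers, which included *Umod* and *Lrp2*, had enough counts to be tested. Together they summed to 0.130 to 0.696 CPM in Ctrl and 0.0528 to 1.26 CPM in βCat-GOF, the largest count of any of them in any mouse was 23, and *Umod* was at 0 in all mice. The reference annotation holds 1 renin gene. Strains of the 129 group also carry a near-identical second one, *Ren2*, so reads of both would be counted as *Ren1*. On this mixed background the parts of *Ren1* and *Ren2* in the counts cannot be told apart.

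Among 22 genes for renin cell regulators and prorenin processing, 1 was called higher, *Akr1b7*, and 0 lower, with a median log2 fold change of 0.07. Of all genes tested, 1.48% were called higher and 0.869% lower. Of the 22, 4 had an unadjusted edgeR p under 0.05. *Akr1b7*, an aldose reductase-like enzyme that renin cells of the kidney express and that is also abundant in the adrenal cortex under ACTH control, rose from 44294 ± 7352 to 125361 ± 69835 normalized counts (SD, n = 6 each; log2 fold change 1.48, SE 0.38, adjusted p = 0.0458). Its groups overlapped. βCat-GOF mice 1 and 2 were at 26231 and 56370, and the other 4 mice of the group were at 141489 or more, so the low mice were again those with the lowest *Ren1*. The order did not match at the high end. *Akr1b7* was highest in βCat-GOF mice 6 and 4 (206331 and 176031), with *Ren1* at 2729 and 2918. Mice 5 and 3, with the highest *Ren1*, had 145717 and 141489. The call of *Akr1b7* held in only 2 of the 12 fits that left out 1 mouse each, where the adjusted p ranged from 0.0024 to 0.105. Exons of the antisense gene *Gm13857* overlap 27.2% of the exon length of *Akr1b7*, and whether the counting used strand is not given in the sources used here. *Furin*, a proprotein convertase, was not called (log2 fold change 0.24, adjusted p = 0.204).

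AT1 receptors. *Agtr1a* (ENSMUSG00000049115; GRCm38 chr13:30336441-30382867, plus strand) and *Agtr1b* (ENSMUSG00000054988; chr3:20314473-20367177, minus strand) encode Gq-coupled receptors of angiotensin II. *Agtr1a* was 2947 at the lowest, 3234 at the median and 4464 at the highest in Ctrl, and 4796, 5935 and 8991 in βCat-GOF. Its log2 fold change was 0.89 (SE 0.15, edgeR adjusted p = 0.0058). *Agtr1b* was 232 at the lowest, 422 at the median and 715 at the highest in Ctrl, and 889, 1323 and 2064 in βCat-GOF. Its log2 fold change was 1.55 (SE 0.25, edgeR adjusted p = 0.0041). The groups did not overlap in either gene (exact permutation p = 0.0022 for each, again the smallest possible).

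The 2 receptor genes ordered the βCat-GOF mice differently. *Agtr1b* was highest in βCat-GOF mice 1 and 2 (2064 and 1524), where *Agtr1a* was lowest (4796 and 4924). *Agtr1a* was highest in βCat-GOF mice 6 and 5 (8991 and 7488), where *Agtr1b* was 1433 and 1213. Without βCat-GOF mice 1 and 2 the log2 fold change was 1.05 for *Agtr1a* (adjusted p = 0.0018) and 1.31 for *Agtr1b* (adjusted p = 0.0090). With shared-stem pairs summed it was 0.97 and 1.42 (adjusted p = 0.0138 and 0.0133).

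Levels can be compared between genes only per length, here as normalized count per kb of merged exon. On this scale the 2 AT1 genes together amounted to 1439 ± 260 in Ctrl (range 1247 to 1935) and 2921 ± 559 in βCat-GOF (range 2437 to 3895; SD, n = 6 each). *Agtr1b* made up 15.0% ± 3.80 of that sum in Ctrl and 22.6% ± 7.86 in βCat-GOF. The difference in share rested on βCat-GOF mice 1 and 2, at 35.8% and 28.7%. The other 4 mice of the group were between 17.0% and 19.6%, inside the Ctrl range of 8.66% to 19.8%. This share was computed after the values of both genes were seen and is given without a test. The longest transcripts of the 2 genes aligned over 1145 bases with 89.8% identity. Of the 2098 stretches of 50 bases in *Agtr1b*, 33 (1.57%) were also in *Agtr1a*, so few reads of that length could belong to either.

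**Figure D2:**
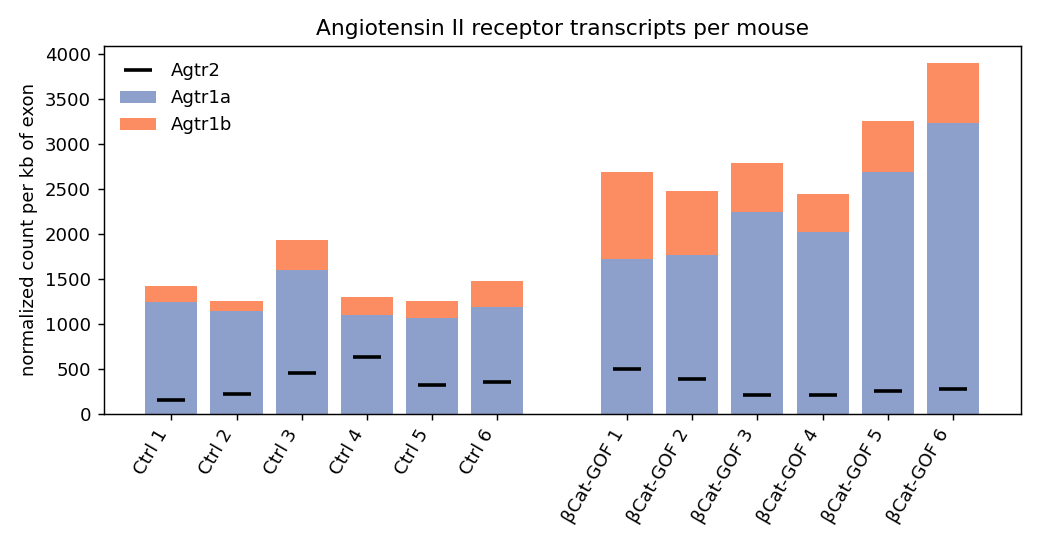
Normalized count per kb of exon of *Agtr1a* and *Agtr1b* (stacked bars) and *Agtr2* (black dashes) in each mouse. The AT1 sum is between 2437 and 3895 in βCat-GOF and between 1247 and 1935 in Ctrl, and the *Agtr1b* part is widest in βCat-GOF mice 1 and 2.

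None of 29 genes of AT1 receptor signaling was called in either direction by edgeR, against 1.48% higher and 0.869% lower of all genes tested. At such shares a list of this size can hold 0 called genes whether or not it differs from other genes. Of these 29, 5 had an unadjusted p under 0.05, and the median log2 fold change was -0.02. DESeq2 called 2 higher and 1 lower. The smallest adjusted p belonged to *Prkcb*, the protein kinase C isoform β (log2 fold change -0.68, SE 0.19, adjusted p = 0.062), and to *Nr4a2*, an angiotensin II-responsive transcription factor of *Cyp11b2* (2.62, SE 0.81, adjusted p = 0.091). *Nr4a2* was 82.4 to 337 in Ctrl and 131 to 5357 in βCat-GOF, with the high values in βCat-GOF mice 2 (5357), 5 (1937) and 1 (729). *Cyp11b2*, aldosterone synthase, is named here because its product is the end point of the pathway. Its RNA was 5162 ± 2063 in Ctrl and 4544 ± 2824 in βCat-GOF (SD, n = 6 each; log2 fold change -0.18, SE 0.36, adjusted p = 0.82). The study measured plasma aldosterone, a hormone level and not RNA, and found it higher in female βCat-GOF mice than in controls. By the genotype labels, the Cre of both groups sits in one *Cyp11b2* allele.

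Angiotensinogen. *Agt* (ENSMUSG00000031980; GRCm38 chr8:124556534-124569706, minus strand) encodes the precursor from which all angiotensins are cut. Its normalized count was 55.8 at the lowest, 214 at the median and 397 at the highest in Ctrl, and 43.3, 171 and 2911 in βCat-GOF. Only βCat-GOF mice 3 (2911) and 5 (1138) were above the Ctrl range, and βCat-GOF mouse 1 was below it. The log2 fold change of 1.74 had an SE of 0.84 and did not pass the test (adjusted p = 0.26). Without βCat-GOF mouse 3 it was 0.55 (adjusted p = 0.72). These 2 mice also had the highest *Ren1*. Within βCat-GOF the Pearson r of log2 CPM between *Agt* and *Ren1* was 0.87 over 6 mice, and within Ctrl 0.53 over 6 mice, both values of a pair coming from the same library.

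Liver and fat are known sources of *Agt*, and the adrenals were trimmed of fat before extraction. The 6 adipocyte markers, all tested and none called, summed to 169 to 909 CPM in Ctrl and 221 to 743 CPM in βCat-GOF. The sum was highest in Ctrl mouse 4 (909 CPM), with *Agt* at 357. In βCat-GOF mice 3 and 4 it was nearly equal, at 588 and 571 CPM, with *Agt* at 2911 and 144. Within βCat-GOF it was lowest in mice 1 and 2 (275 and 221 CPM), which also had the lowest *Ren1*, and highest in mouse 5 (743 CPM), with the highest *Ren1*. Over the 6 βCat-GOF mice the Pearson r of the adipocyte sum was 0.72 with *Agt* and 0.95 with *Ren1*. Within Ctrl it was 0.26 and 0.30. The part of fat in these 2 genes was not tested. Of 6 liver markers 1 had enough counts to be tested and was not called, and the list summed to 42.3 to 237 CPM in Ctrl and 44.3 to 311 CPM in βCat-GOF. Within βCat-GOF this sum was highest in mice 5 and 3 (311 and 203 CPM), the mice with the highest *Agt* and *Ren1*, and its Pearson r over the 6 mice was 0.80 with *Agt* and 0.95 with *Ren1*. Within Ctrl the r of this sum was 0.45 with *Agt* and 0.33 with *Ren1*. Apart from βCat-GOF mouse 4, nearly all of the sum came from *Cyp2e1*, the tested gene. *Cyp2e1* was 849 to 4631 normalized counts in Ctrl and 781 to 6353 in βCat-GOF. Albumin (*Alb*) was at 1202 normalized counts in βCat-GOF mouse 4 and at 2.92 or less in each of the others, and in that mouse *Agt* was 144. The part of liver RNA in *Agt* and *Ren1* was not tested.

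Converting enzyme and other peptidases. *Ace* (ENSMUSG00000020681; GRCm38 chr11:105967945-105989964, plus strand) encodes angiotensin-converting enzyme. It was 188 at the lowest, 366 at the median and 586 at the highest in Ctrl, and 170, 243 and 308 in βCat-GOF. The groups overlapped, with Ctrl mice 1 (188) and 6 (303) among the βCat-GOF values. The log2 fold change was -0.67 (SE 0.24, edgeR adjusted p = 0.145). Without Ctrl mouse 1 it was -0.80 (adjusted p = 0.0447) and the gene was called lower.

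*Ace* varied with the markers of the adrenal medulla. The 8 medulla markers, among them *Th*, *Dbh* and *Chga*, were all tested with none called, against 1.48% higher and 0.869% lower of all genes. Of the 8, 7 had a negative log2 fold change (median -0.35) and 2 an unadjusted p under 0.05. They summed to 3907 to 12419 CPM in Ctrl and 4796 to 9036 CPM in βCat-GOF. Across the 12 mice, deviations of log2 CPM of *Ace* from its group mean had a Pearson r of 0.94 with those of the medulla sum (0.97 within Ctrl and 0.88 within βCat-GOF, 6 mice each). Ctrl mouse 1 had both the lowest *Ace* of its group and the lowest medulla sum of all mice (3907 CPM). Of 11431 genes searched, those most like *Ace* were *Thy1* (r = 0.98), the glutamate receptor subunit gene *Grin1* (0.98) and the vesicular monoamine transporter gene *Slc18a1* (0.97), the last being 1 of the medulla markers. This search was added for *Ace* after its values were seen. All points of a pair share a library, and the part of medulla content in the *Ace* difference was not tested.

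**Figure D3:**
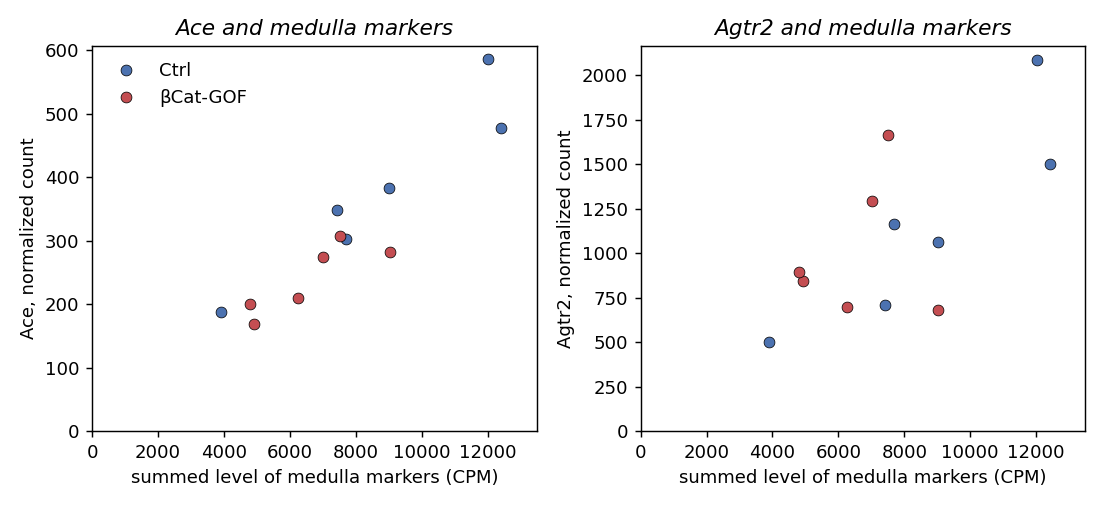
Normalized count of *Ace* (left) and *Agtr2* (right) against the summed CPM of the medulla markers, 1 point per mouse. *Ace* rises with the medulla sum in both groups, and the highest medulla sums (12419 and 12027 CPM) are in Ctrl mice 3 and 4. *Agtr2* follows it more loosely, with βCat-GOF mice 1 and 2 at 1664 and 1293.

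Of 19 genes for other angiotensin peptidases and alternative receptors, 15 were tested, 0 were called higher and 1 lower, with a median log2 fold change of 0.05. The shares over all genes tested were 1.48% higher and 0.869% lower. Of the 15, 6 had an unadjusted p under 0.05, and DESeq2 called 1 higher and 1 lower. *Prcp*, a lysosomal carboxypeptidase that can turn angiotensin II into angiotensin-(1-7), fell from 725 ± 144 to 477 ± 64.6 (SD, n = 6 each; log2 fold change -0.61, SE 0.13, adjusted p = 0.0226). Its values were 578 to 899 in Ctrl and 371 to 547 in βCat-GOF, with no overlap. The call was lost without Ctrl mouse 6 or without βCat-GOF mouse 6, the largest adjusted p being 0.0588. *Thop1*, an oligopeptidase that also makes angiotensin-(1-7), was next by adjusted p (log2 fold change 0.62, SE 0.19, adjusted p = 0.099).

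AT2 receptor and Mas. *Agtr2* (ENSMUSG00000068122; GRCm38 chrX:21484544-21489164, plus strand) encodes the AT2 receptor, which the adrenal medulla of rodents is known to express. Its normalized count was 499 at the lowest, 1114 at the median and 2086 at the highest in Ctrl, and 683, 869 and 1664 in βCat-GOF. The groups overlapped throughout (log2 fold change -0.21, SE 0.32, adjusted p = 0.76). Its deviations had a Pearson r of 0.70 with the medulla sum over 12 mice, being 0.92 within Ctrl and 0.16 within βCat-GOF. With the sum of the 8 capsule and stroma markers r was 0.72 (0.72 within Ctrl and 0.80 within βCat-GOF). With the zG sum it was 0.49 (-0.09 within Ctrl and 0.92 within βCat-GOF). Which cells carried *Agtr2* was not tested. In βCat-GOF the highest *Agtr2* values were again in mice 1 and 2 (1664 and 1293), the mice with the highest *Agtr1b*. Per kb of exon *Agtr2* stood at 24.8% ± 12.8 of the AT1 sum in Ctrl and 10.8% ± 5.02 in βCat-GOF (SD, n = 6 each). The ranges overlapped, from 10.5% to 48.3% and from 6.91% to 18.7%. *Mas1* (ENSMUSG00000068037; GRCm38 chr17:12841079-12868143, minus strand) had 2 counts in Ctrl mouse 2, 1 count in Ctrl mouse 6 and 0 in the other 10 mice, which allows up to 0.117 to 0.222 CPM per library.

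Accessory proteins. *Agtrap* (ENSMUSG00000029007; GRCm38 chr4:148077061-148088031, minus strand) encodes a protein that binds the AT1 receptor and promotes its internalization. It was 1925 at the lowest, 2444 at the median and 2793 at the highest in Ctrl, and 1746, 2041 and 2666 in βCat-GOF (log2 fold change -0.18, SE 0.12, adjusted p = 0.42). *Atp6ap2* (ENSMUSG00000031007; GRCm38 chrX:12587801-12617049, plus strand) encodes the (pro)renin receptor, which is also an accessory subunit of the vacuolar proton pump (V-ATPase). It was 1900, 2119 and 2387 in Ctrl and 1724, 2167 and 2398 in βCat-GOF (log2 fold change -0.03, SE 0.08, adjusted p = 0.89). It varied least of the members, with a coefficient of variation of 8.00% in Ctrl and 10.8% in βCat-GOF. The gene model *Gm36448* matches 18.9% of the *Atp6ap2* transcript at 98.4% identity, so some of its reads may have been left out or placed there. Of 15 V-ATPase subunits tested, 0 were called by edgeR or DESeq2 and 0 had an unadjusted p under 0.05, and their log2 fold changes ran from -0.16 to 0.14. Over all genes tested, edgeR called 1.48% higher and 0.869% lower.

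**Figure D4:**
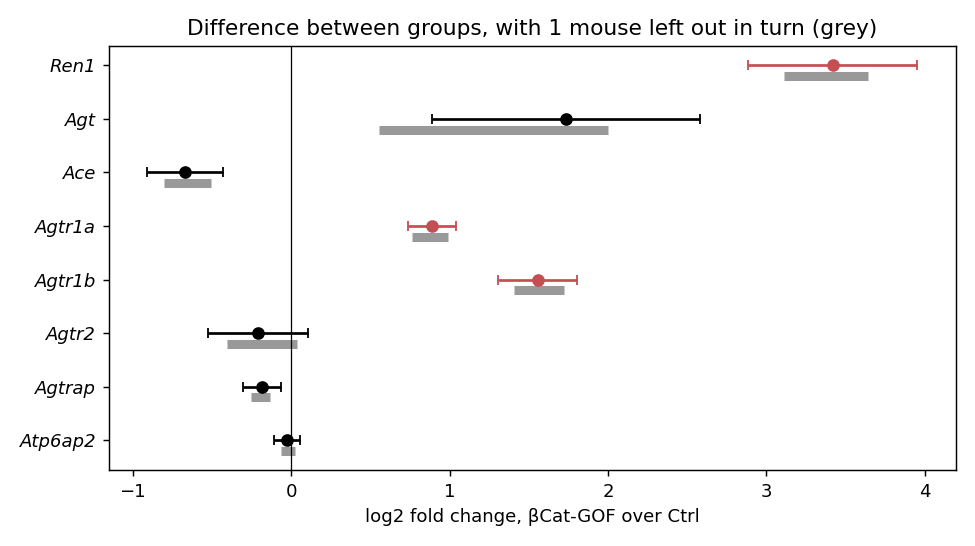
Log2 fold change (βCat-GOF over Ctrl) of each tested member with its SE (points and bars, n = 6 and 6; red where called) and the range over the 12 fits that leave out 1 mouse each (grey). *Ren1*, *Agtr1b* and *Agtr1a* stay above 0.76 in all of these fits, and *Agt* reaches from 0.55 to 2.00.

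The order of the members by mean changed between the groups. In Ctrl, the mean normalized count per kb of exon was 1220 ± 197 for *Agtr1a*, 823 ± 65.8 for *Atp6ap2*, 575 ± 72.8 for *Agtrap*, 352 ± 171 for *Agtr2*, 219 ± 81.0 for *Agtr1b*, 196 ± 107 for *Ren1*, 120 ± 70.9 for *Agt* and 72.1 ± 26.1 for *Ace* (SD, n = 6). *Agtr1a*, *Atp6ap2* and *Agtrap* were separated from each other in all Ctrl mice, whereas from *Agtrap* down to *Ace* the ranges of neighbours in this order overlapped. In βCat-GOF, *Ren1* stood at 2115 ± 1457 and *Agtr1a* at 2277 ± 584, with overlapping ranges of 684 to 4206 and 1722 to 3227. *Atp6ap2* was at 813 ± 88.0, *Agtr1b* at 644 ± 187, *Agtrap* at 509 ± 91.3, *Agt* at 403 ± 596, *Agtr2* at 305 ± 117 and *Ace* at 45.6 ± 10.4. The place of *Agt* by mean came from βCat-GOF mice 3 and 5 (1539 and 602). In the other mice of the group *Agt* was 22.9 to 104, below the lowest *Agtr2* of the group (205). In this group all *Agtr1a* values lay above those of *Atp6ap2* and all *Agtr2* values above those of *Ace*, while neighbours between *Atp6ap2* and *Agtr2* overlapped.

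Genes beside the members. Of the 22 tested genes that start within 1 Mb of the *Ren1* start, 1 was called higher and 0 lower. It was *Etnk2*, an ethanolamine kinase gene (GRCm38 chr1:133363572-133380336), the next gene on the same strand, which starts 3.25 kb after the end of *Ren1*. *Etnk2* was 115 at the lowest, 161 at the median and 224 at the highest in Ctrl, and 301, 436 and 550 in βCat-GOF. No mouse overlapped (log2 fold change 1.36, SE 0.18, adjusted p = 0.0013). The nearest tested gene on the other side, *Plekha6*, starts 186 kb away and had a log2 fold change of 0.11 (adjusted p = 0.82).

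The same search around the other members was added after the *Ren1* region was seen. Around *Agtr1b*, 1 of 7 tested genes was called higher, *Cpb1*, a carboxypeptidase gene (GRCm38 chr3:20248264-20275733). It lies on the same strand, downstream of *Agtr1b*, with 91.4 kb between the gene starts. *Cpb1* was 229 at the lowest, 315 at the median and 596 at the highest in Ctrl, and 731, 930 and 1358 in βCat-GOF, with no overlap (log2 fold change 1.45, SE 0.23, adjusted p = 0.0038). It was also 1 of the 3 genes most like *Agtr1b* across mice, with a Pearson r of deviations of 0.91 over 12 mice. The next gene out, *Cpa3*, a mast cell carboxypeptidase gene at 125 kb, had a log2 fold change of 0.95 and was not called (SE 0.41, adjusted p = 0.21). Around *Agtr1a* 0 of 7 tested genes were called, and around the other 5 tested members 0 as well. In all, 2 of the 140 tested neighbours (1.43%) were called higher and 0 lower, a share near the 1.48% of all genes tested. The strain of origin of these stretches on the mixed background was not analysed here.

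**Figure D5:**
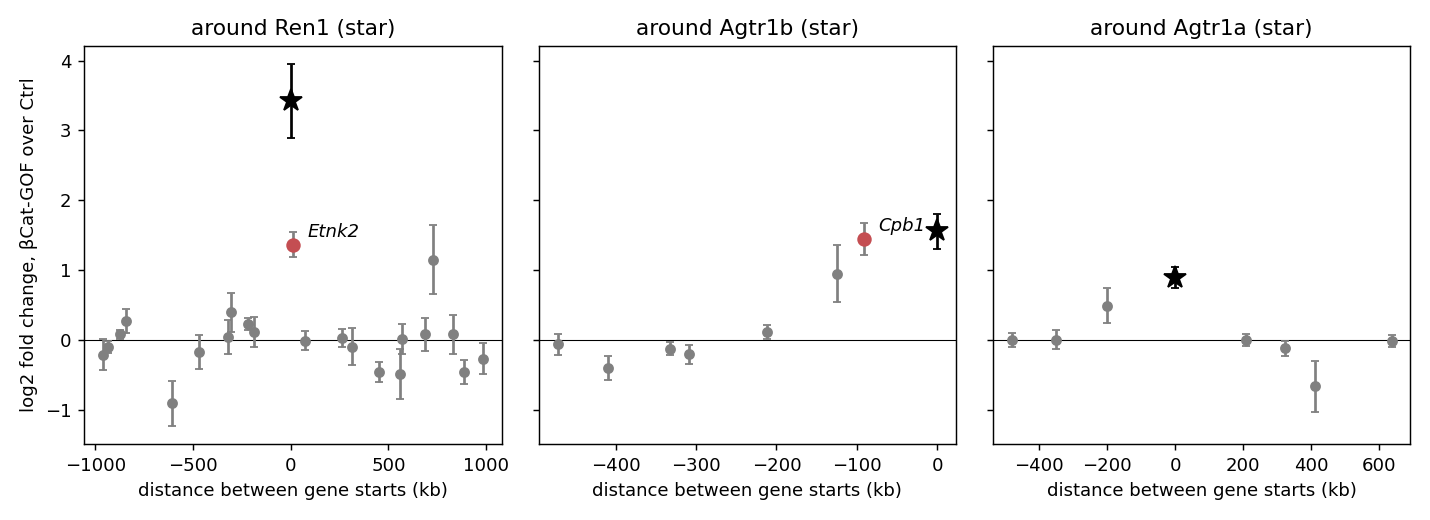
Log2 fold change (βCat-GOF over Ctrl, with SE) of tested genes against the distance of their start from the start of *Ren1*, *Agtr1b* and *Agtr1a* (stars). Called neighbours are red: *Etnk2* (1.36) beside *Ren1* and *Cpb1* (1.45) beside *Agtr1b*, with none beside *Agtr1a*.

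Genes that varied most like the called members were found by the Pearson r of log2 CPM deviations from the group mean over 12 mice, among 11431 genes. For *Ren1* they were *Atg4a* (r = 0.92), *Ms4a6c* (0.87) and *Pmepa1* (0.86), for *Agtr1a* *Rsl24d1* (0.92), *Cct4* (0.89) and *Arpp19* (0.89), and for *Agtr1b* *Ism1* (0.93), *Cpb1* (0.91) and *Rpa3* (0.90). Of these 9 genes, *Ism1* (log2 fold change 1.93, adjusted p = 2.3e-04) and *Cpb1* were called higher and the others were not called. With 11431 genes searched over 12 mice that also share their library's depth, such values are descriptions. Of the called members, *Ren1* and *Agtr1b* had an r of 0.91 within Ctrl and -0.63 within βCat-GOF (6 mice each), *Ren1* and *Agtr1a* 0.31 and 0.59, and *Agtr1a* and *Agtr1b* 0.58 and -0.29.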

How the data were processed

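RNA was taken from whole adrenals, and mRNA libraries were made with an Illumina TruSeq mRNA kit, 1 per mouse. According to the study's methods and the submitters' processing notes, the authors trimmed adapters with cutadapt, aligned reads with STAR to mm10 (the GRCm38 assembly) and used featureCounts 1.4.4 to count, for each gene, the reads that map once. The deposited counts are not normalized. The deposited signal table holds the same counts divided by 1 factor per library, and these factors were 0.954 to 0.976 times the size factors used here. No column was left unmapped (0 columns).

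Counts were tested with edgeR 4.0.16 (TMM, filterByExpr, quasi-likelihood, two-sided) under R 4.3.3. P-values were adjusted by Benjamini-Hochberg across 14953 genes. Normalized counts are counts divided by DESeq2 1.42.0 median-of-ratios factors. The cut-offs were those of the study. The SE is the log2 fold change divided by the square root of F. Log2 CPM of single genes used the TMM factors and a prior count of 2. Summed CPM of marker lists were counts over the library total, without TMM factors or a prior count. A Pearson r between a gene and a marker sum therefore joined values of these 2 scalings, with the sum on the log2 scale. The tests treated each library as an independent mouse. The labels do not say which mice were littermates, so the p-values do not account for any relation between mice. Copies were searched with blastn 2.17.0, positions came from GENCODE M21 and promoter sequences from RefSeq (GRCm38.p6). The scripts were tested on simulated data.

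The members and lists were chosen with earlier results of these data known. Genes named are all members, up to 6 called genes of each list or, where under 2 were called, the 2 with the smallest adjusted p, the 3 genes most like each called member, and the called and nearest tested neighbours of *Ren1*. *Ctnnb1*, *Cyp11b2*, *Alb*, *Cpa3*, the neighbours of other members, the genes most like *Ace* and the markers given as examples fall outside that rule. Some genes of the lists are not reported here. Of the other lists, X-zone markers (3 tested) had 1 gene called lower (*Akr1cl*), and zona fasciculata (6), capsule and stroma (8), endothelial (8), smooth muscle and pericyte (7) and mast cell (3) markers had 0 called. All counts of called genes stand against 1.48% higher and 0.869% lower over all genes tested. Alternatives were DESeq2, other scaling and filters, other cut-offs, 1 surrogate variable (sva 3.50.0), summed shared-stem libraries and leaving out mice. 2 of them (the deposited factors, and leaving out βCat-GOF mice 1 and 2 together) were added after the data were examined.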

Additional observations from a re-analysis of the deposited data

Results flagged for a closer look

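*Agtr1a* in Ctrl mouse 3 stood apart from the other Ctrl mice, at 4464 normalized counts against 2947 to 3444 in the other 5. It was the only value so far from its group among the 24 groups of 6 mice examined, and chance alone puts about 1 in 20 groups in this position. This mouse lay below every βCat-GOF mouse, and without it *Agtr1a* stayed called.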

How the results depend on the processing

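*Ren1*, *Agtr1a* and *Agtr1b* were called higher in all 12 fits that left out 1 mouse each and in all other alternatives, so that 3 members were higher each time. With 1 mouse left out their log2 fold changes ranged from 3.11 to 3.64, 0.76 to 0.99 and 1.41 to 1.72. The count of members called lower ranged from 0 to 1, being 1 without Ctrl mouse 1, where *Ace* was called at -0.80 (its range was -0.80 to -0.50). *Agtr2* ranged from -0.41 to 0.036, turning positive without Ctrl mouse 4 (0.036), and *Atp6ap2* from -0.067 to 0.024, turning positive without Ctrl mouse 3 (0.011) or βCat-GOF mouse 4 (0.024). None of these small values passed the test, and the cause was not tested. Angiotensin peptidases called higher numbered 1 with DESeq2 and 1 without βCat-GOF mice 1 and 2 together, and 0 to 1 with 1 mouse left out (1 without βCat-GOF mouse 1). Those called lower numbered 0 to 1 (0 without Ctrl mouse 6 or βCat-GOF mouse 6). AT1 signaling genes called higher numbered 2 with DESeq2, 2 with the surrogate variable, 1 without βCat-GOF mice 1 and 2 together and 0 to 1 with 1 mouse left out (1 without βCat-GOF mouse 1). Those called lower numbered 1 with DESeq2, 1 without βCat-GOF mice 1 and 2 together and 0 to 1 with 1 mouse left out (1 without Ctrl mouse 1 or βCat-GOF mouse 1). Renin cell regulators called higher numbered 0 with the surrogate variable and 0 to 1 with 1 mouse left out. The cause was not tested. No paired analysis was possible because the labels give the groups no shared replicate numbers. The median shift of any scaling was under 0.1 on the log2 scale. Depth limits *Mas1*, the kidney markers and most liver markers, which had too few counts to test.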
